A study of Mus musculus with 24 samples.

Results

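Pancreatic islets used for sequencing are never pure endocrine tissue, and one round of isolation can differ from the next in the cells it carries and in their state. The 24 mRNA libraries of dispersed mouse islet cells were recorded in 2 batches, and the 12 libraries of batch 1 (S1 to S12) were compared here with the 12 of batch 2 (S13 to S24) across all genes. Together these are all 24 libraries of the series. The cells came from wild-type mice and were transfected with 50 pmol of a control antisense oligonucleotide (Ctr ASO) or of one against the 5'tRF of tRNA-Glu(CTC) (αGlu ASO), then kept for 48 h in medium with 1% serum and either 0.5 mM palmitate bound to BSA (PA) or 0.75% BSA alone. The methods give the donors as C57BL/6NRj mice of both sexes aged 12 to 14 weeks. Each of the 4 groups, Ctr BSA, αGlu BSA, Ctr PA and αGlu PA, had 6 libraries, 3 in each batch, so that batch was balanced over ASO and treatment. All cells of both batches were dispersed and transfected, and none was left untreated. The records do not say what was done together in a batch, whether islet isolation, extraction or sequencing.

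Islets are clusters of insulin-producing beta cells with fewer alpha, delta and PP cells, which make glucagon, somatostatin and pancreatic polypeptide. They are released from the surrounding exocrine tissue by collagenase digestion and then purified on a density gradient and by hand. Exocrine tissue consists of acinar cells, which make digestive enzymes in very large amounts, and of the ductal cells that line their outlets. Resident macrophages, capillary endothelium, stellate cells and Schwann cells are also carried along with the islets.

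Total counts ran from 18214719 to 35001979 per library and the test found no difference between batches (exact permutation within groups, two-sided, adjusted p = 0.809 over 9 quantities). Insulin transcripts took 6.23% to 11.4% of counts. The libraries S1 and S23 stood apart. In S1, of batch 1, a single rRNA gene held 15.9% of counts, against at most 3.47% elsewhere, and in S23, of batch 2, mitochondrial mRNAs held 8.73%, against at most 5.95%. The Y-linked gene Ddx3y was at 51.2 CPM or more in every library and Xist, which is transcribed from the inactive X chromosome of female cells, at 2.52 CPM or less. By these genes no library stood out as female, although the methods give donors of both sexes. Nnt, which carries a deletion in the C57BL/6J substrain, was at 41.3 CPM or more in all libraries. The study states that each replicate of primary cells was a preparation from a different organism and that all groups of a replicate came from the same animal, which makes 6 preparations, 3 in each batch, each with 4 libraries. The labels do not tie libraries to preparations. The p-values over 12 against 12 libraries, permutations included, take libraries of one preparation as independent and are therefore too small, and an exact test of 3 preparations against 3 could not go below 0.100. Within a group each library was of another preparation, so the fits of single groups do not share animals.

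Batch had the larger part in the first axis of variation, but not in the second. It accounted for 65.2% of the variance along the first principal component of log2 CPM, which held 33% of the total. Treatment (PA or BSA) accounted for 28.9% along the same component. Along the second, which held 16.4%, treatment accounted for 57.6% and batch for 28.4%. A model with the 4 groups and batch was fitted to all 16580 genes with enough counts (edgeR quasi-likelihood test, Benjamini-Hochberg adjustment). Here, genes that rose or fell are those with an adjusted p below 0.05, always as batch 2 against batch 1, and called genes are those that also differed more than 2-fold. Of all genes tested, 4191 rose (25.3%) and 4087 fell (24.7%), and the median log2 fold change was 0.00244. Counts for gene lists are to be read beside these shares. Larger differences were mostly in one direction, with 913 genes called lower (5.51%) and 164 called higher (0.989%). Called genes had low counts. The median of the mean count per library was 71.1 for those called lower and 30.1 for those called higher, against 406 for all genes tested. All 12 libraries of batch 2 lay below all 12 of batch 1 for 570 genes (3.44%) and above them for 516 (3.11%). In each group fitted alone, with 3 libraries against 3, 583 (Ctr PA) to 769 (αGlu PA) genes were called. Of the 787 called genes with enough counts in all 4 groups, 774 kept their direction in all 4. These genes were called on the same libraries, so agreement in direction was largely given in advance. Of all 1077 called genes, 425 also had an adjusted p below 0.05 in each group alone. In bulk RNA, fewer cells of a type and less RNA per cell cannot be told apart, and this holds for every cell type named here.

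**Figure D1:**
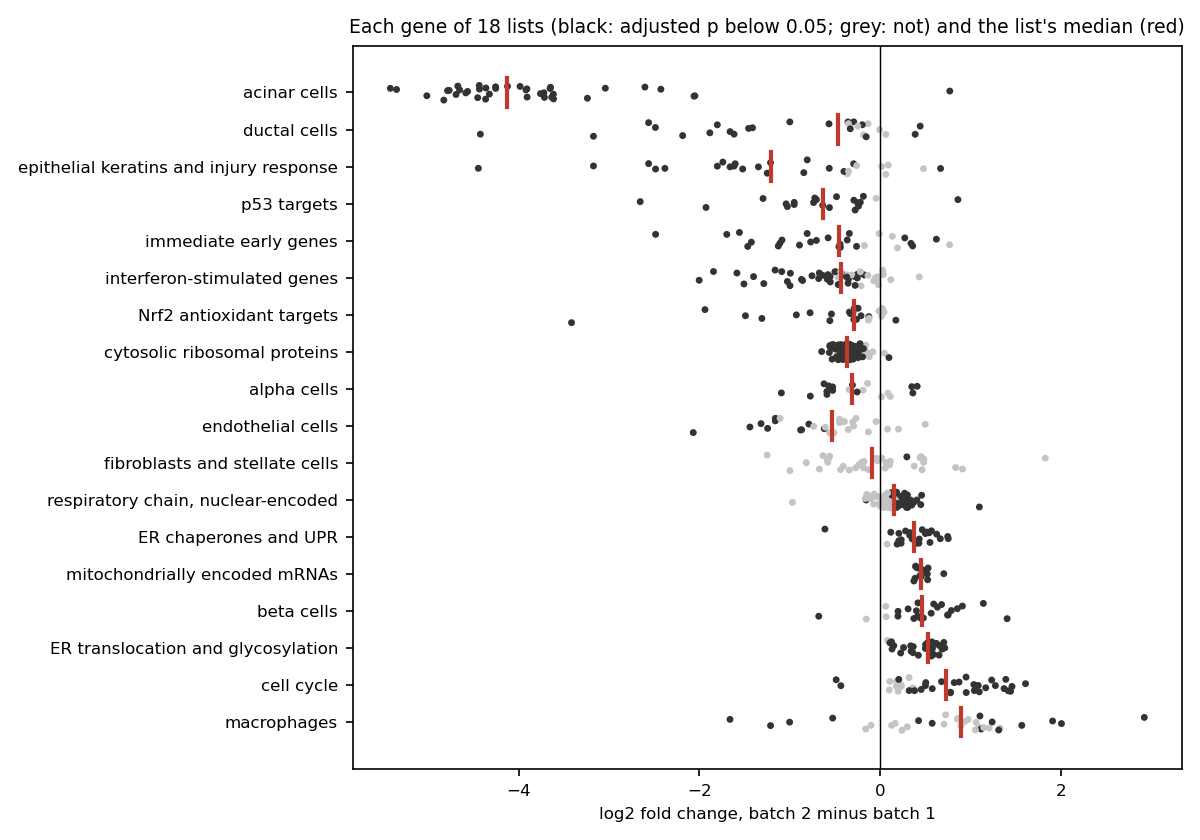
Log2 fold change of batch 2 against batch 1 (x axis) for every tested gene of 18 gene lists (rows), with genes of adjusted p below 0.05 in black, the others in grey, and the median of each list as a red bar. The acinar list sits apart with a median of -4.12, and the lists of beta cells, ER translocation and cell cycle lie to the right of 0.

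Acinar genes had the median farthest from 0 of all gene lists. Of 39 acinar genes tested, 38 fell, all by more than 2-fold, and their list had a median log2 fold change of -4.12. The 40 listed genes found in the table had a share of all counts that ranged from 0.525% to 3.35% in batch 1 (median 1.07%) and from 0.0405% to 0.103% in batch 2 (median 0.0754%) (exact permutation within groups, two-sided, adjusted p = 3.75e-05, with 1.25e-05 the smallest unadjusted p it can give). Every library of batch 1 was above every library of batch 2. The elastase Cela2a ranged from 426 to 3396 CPM in batch 1 (median 1144) and from 18.6 to 65.4 CPM in batch 2 (median 43.8), 28.4-fold lower (log2 fold change -4.83, SE 0.255, adjusted p = 4.40e-13). Ctrb1, a chymotrypsinogen (chr8:111686519-111691010 in GRCm38), ranged from 1162 to 5237 CPM in batch 1 (median 2518) and from 97.4 to 316 CPM in batch 2 (median 204) and fell 12.4-fold (log2 fold change -3.63, SE 0.223, adjusted p = 3.16e-12). For both enzymes the lowest library of batch 1 was above the highest of batch 2. The trypsinogen Try5 ranged from 785 to 2569 CPM in batch 1 (median 1449) and from 49.9 to 119.7 CPM in batch 2 (median 79.8) (log2 fold change -4.26, SE 0.212, adjusted p = 2.31e-13). Its relative Prss2 ranged from 410.5 to 1872 CPM in batch 1 (median 898) and from 30 to 71.7 CPM in batch 2 (median 53.6) (log2 fold change -4.12, SE 0.230, adjusted p = 8.83e-13). Trypsinogen and amylase genes occur as near-identical copies, so that reads may be shared among Try4, Try5, Try10, Prss2 and the Amy2a genes, and their values are less certain than those of Cela2a. Carboxypeptidase A1 (Cpa1) went from a median of 549 to 33.9 CPM (log2 fold change -4.37, SE 0.244, adjusted p = 8.83e-13). The chymotrypsin-like protease Ctrl went from 197 to 8.06 CPM (log2 fold change -5.02, SE 0.279, adjusted p = 8.83e-13). Sycn, which encodes the zymogen granule protein syncollin, ranged from 28.1 to 286 CPM in batch 1 (median 72.8) and from 1.00 to 4.64 CPM in batch 2 (median 3.70) (log2 fold change -4.79, SE 0.242, adjusted p = 2.76e-13). None of these genes overlapped between batches.

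The difference extended beyond the enzymes to the receptor and the transcription factors of acinar cells. Cckar, the cholecystokinin receptor that triggers enzyme secretion, ranged from 27.4 to 91.8 CPM in batch 1 (median 50.8) and from 2.58 to 4.73 CPM in batch 2 (median 3.37) (log2 fold change -3.99, SE 0.199, adjusted p = 2.31e-13). Ptf1a, which specifies and maintains acinar cells, fell by 4.26 on the log2 scale, its partner Rbpjl by 3.62, Nr5a2 by 2.60 and Gata4 by 3.64 (largest adjusted p of the 4 = 2.62e-09). These 4 were singled out after their values were seen. The single acinar gene that rose was Bhlha15, a transcription factor of secretory cells, which ranged from 32.1 to 54.4 CPM in batch 1 (median 40.4) and from 57.4 to 84 CPM in batch 2 (median 71.4), with no overlap in the direction opposite to the enzymes (log2 fold change 0.77, SE 0.0445, adjusted p = 1.34e-12). Batch 1 libraries also varied among themselves. Within batch 1, the acinar share was 0.870% to 3.35% in the 6 BSA libraries and 0.525% to 1.46% in the 6 PA libraries, whereas in batch 2 it was 0.0710% to 0.103% with BSA and 0.0405% to 0.0946% with PA. In the groups fitted alone, 35 to 36 acinar genes fell, with medians from -4.75 (Ctr BSA) to -3.84 (αGlu PA).

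Acinar promoters are known for E-boxes bound by the Ptf1a complex. The letters CACCTG, read on both strands in the 250 bases upstream of the start, occurred in 18 of the 32 acinar promoters given (56.2%) and in 17.1% of all 27025 promoters. TATAAA occurred in 13 of them (40.6%), against 13% of all promoters. The stretches around the E-box nearest the start (RefSeq sequence, GRCm38.p6, 5' to 3' on the strand of the gene, E-box letters in capitals, CAGGTG being the same letters on the opposite strand) are shown for the 3 acinar genes with most counts that carry one and fell, because acinar genes differ most between the batches:
Cela2a, chr4:141826188-141826253, minus strand: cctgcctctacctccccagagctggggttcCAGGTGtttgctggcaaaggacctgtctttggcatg
Prss2, chr6:41521577-41521642, plus strand: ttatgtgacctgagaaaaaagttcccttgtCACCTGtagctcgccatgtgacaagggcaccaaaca
Cela1, chr15:100687994-100688059, minus strand: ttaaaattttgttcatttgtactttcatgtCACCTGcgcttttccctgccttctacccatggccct
Such a match is a description of letters and not of binding. Of the acinar promoters without the E-box letters, 14 of 14 belonged to genes that fell, as did 17 of 18 with them.

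**Figure D2:**
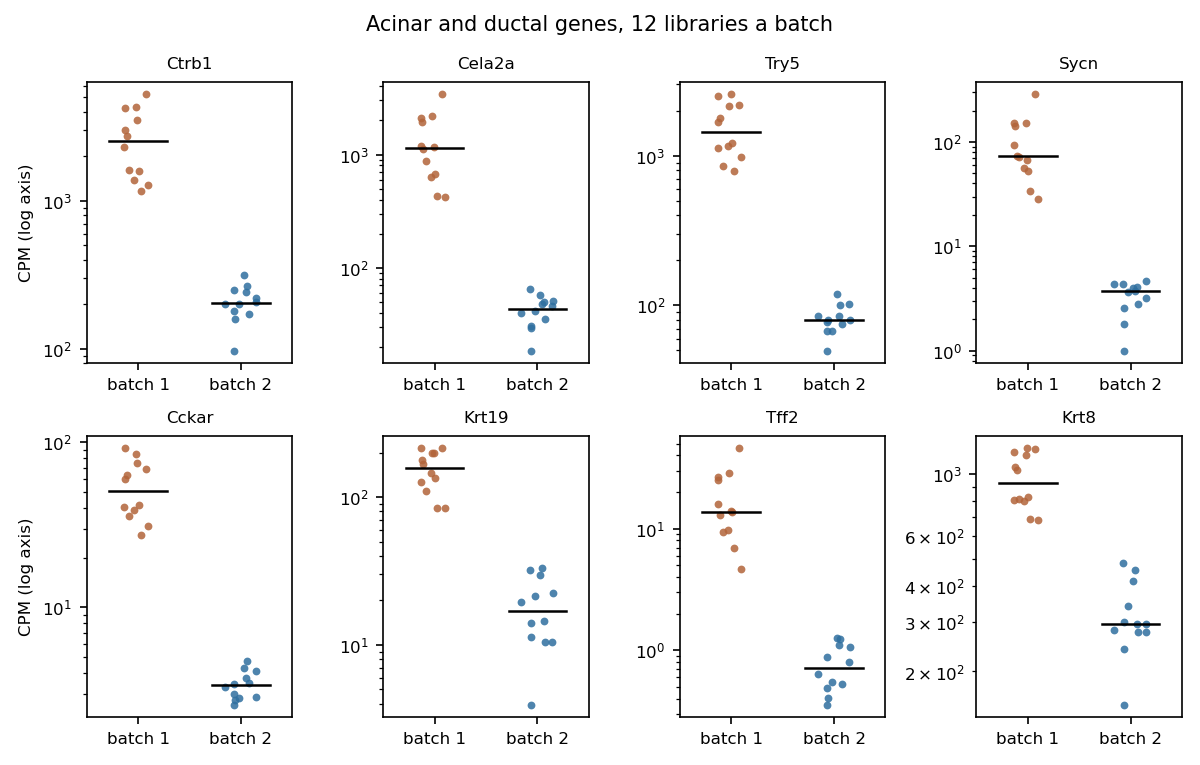
Level in CPM on a log axis (y) of 5 acinar genes (Ctrb1, Cela2a, Try5, Sycn, Cckar) and 3 genes of ductal epithelium (Krt19, Tff2, Krt8) in the 12 libraries of each batch (points), with the median as a line. No point of batch 2 reaches the lowest point of batch 1 in any panel.

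Ductal and other epithelial genes also differed, though unevenly. Of 26 ductal genes, 18 fell, 11 of them more than 2-fold, 2 rose and 6 did not pass (list median -0.46). Krt19, the keratin that marks pancreatic ducts, ranged from 83.8 to 214 CPM in batch 1 (median 157) and from 3.93 to 32.9 CPM in batch 2 (median 17), 9.02-fold lower (log2 fold change -3.17, SE 0.210, adjusted p = 1.00e-11). The trefoil factor Tff2 ranged from 4.64 to 45.8 CPM in batch 1 (median 13.8) and from 0.358 to 1.26 CPM in batch 2 (median 0.719) (log2 fold change -4.42, SE 0.277, adjusted p = 4.14e-12). Both genes were apart in all libraries. The chloride channel Cftr of ductal cells had a log2 fold change of -2.49 (adjusted p = 5.12e-08) and the ductal factor Sox9 one of -0.998 (adjusted p = 2.64e-05), while the keratin gene Krt7 differed by 0.064 (adjusted p = 0.519). Spp1, or osteopontin, rose by 0.44 (adjusted p = 0.0246), but did not pass without S20 (adjusted p = 0.0547) or in any group alone, and without S20 a single ductal gene rose. These 4 genes were singled out after their values were seen, and the ductal list was thus not lowered as a block like the acinar one.

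Keratins and genes of epithelial injury fell in 19 of 27 cases, 14 more than 2-fold, with a list median of -1.21. Krt8 and Krt18, partner keratins of simple epithelia, went from medians of 926 and 712 CPM to 294 and 222 CPM (adjusted p = 2.05e-10 and 6.82e-11). Krt23 went from a median of 19.8 to 0.861 CPM (log2 fold change -4.45, SE 0.300, adjusted p = 1.34e-11). The secreted chaperone clusterin (Clu) ranged from 723 to 2111 CPM in batch 1 (median 1213) and from 179 to 635 CPM in batch 2 (median 381) (log2 fold change -1.80, SE 0.177, adjusted p = 6.59e-09). The tight junction gene Cldn4 ranged from 282 to 501 CPM in batch 1 (median 409) and from 93.8 to 185 CPM in batch 2 (median 130.2) (log2 fold change -1.60, SE 0.106, adjusted p = 9.85e-12). Several of these genes, among them Krt8, Krt18, Krt19 and Clu, are also on the ductal list. Msln was the one that rose, by 0.67 (adjusted p = 1.69e-05). Of 22 basement membrane genes, 6 fell and none rose, a share near the 24.7% of all genes that fell. Lamb3, the beta chain of the epithelial laminin-332, ranged from 26.2 to 67.4 CPM in batch 1 (median 51) and from 1.47 to 10.7 CPM in batch 2 (median 6.09) (log2 fold change -3.04, SE 0.206, adjusted p = 1.44e-11), while the collagen gene Col4a1 of vessel walls had medians of 97.8 and 101 CPM (adjusted p = 0.329).

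Beta-cell genes were higher in batch 2. Of 25 tested, 21 rose, 1 fell and 3 did not pass, with a list median of 0.46, and for 12 of them all libraries of batch 2 were above all of batch 1. Fitted alone, Ctr BSA, αGlu BSA, Ctr PA and αGlu PA gave 15, 19, 11 and 18 that rose and 1 in each that fell. With acinar and ductal genes left out before scaling, 21 rose, with a median of 0.46. That setting bears on scaling, and the mix of cells was not tested. The share of insulin transcripts ranged from 6.23% to 9.68% in batch 1 (median 7.38%) and from 7.51% to 11.4% in batch 2 (median 10.1%) (exact permutation, adjusted p = 3.75e-05). Ins2 ranged from 41237 to 76133 CPM in batch 1 (median 48020.3) and from 52309 to 79450.3 CPM in batch 2 (median 68702) (log2 fold change 0.42, SE 0.0676, adjusted p = 1.23e-05). Ins1 ranged from 19157 to 37241 CPM in batch 1 (median 22905) and from 25462 to 40460.0 CPM in batch 2 (median 34588) (log2 fold change 0.48, SE 0.0631, adjusted p = 6.93e-07). Both overlapped between batches, and as the coding parts of Ins1 and Ins2 are alike, reads may be shared between them. Neither insulin gene passed in Ctr BSA or Ctr PA alone (adjusted p = 0.244 and 0.0785 for Ins1, 0.350 and 0.161 for Ins2). The beta-cell peptide Iapp ranged from 11043 to 21002 CPM in batch 1 (median 17712) and from 21914 to 32164 CPM in batch 2 (median 27068) and did not overlap (log2 fold change 0.76, SE 0.0700, adjusted p = 2.63e-09). Larger differences were seen for 2 beta-cell membrane proteins. Trpm5, a cation channel that takes part in glucose-stimulated insulin secretion, ranged from 9.26 to 16.7 CPM in batch 1 (median 12.1) and from 26.3 to 43.3 CPM in batch 2 (median 32.1) (log2 fold change 1.41, SE 0.0806, adjusted p = 1.19e-12). The prolactin receptor Prlr ranged from 82.3 to 154 CPM in batch 1 (median 118) and from 218 to 375 CPM in batch 2 (median 247) (log2 fold change 1.14, SE 0.0764, adjusted p = 1.18e-11). Neither gene overlapped between batches. Among genes of the mature beta cell, Ucn3 rose by 0.86, the glucose-6-phosphatase G6pc2 by 0.91 and the glucose transporter Slc2a2 by 0.59 (largest adjusted p of the 3 = 1.44e-06). The transcription factors Mafa, Pdx1 and Nkx6-1 rose by 0.46, 0.37 and 0.20 (adjusted p = 6.82e-07, 3.24e-07 and 0.00311), but Nkx6-1 passed in no group alone. Cd81, a surface protein of immature beta cells, was the one that fell, by 0.68 (adjusted p = 2.78e-09). The last 7 genes were singled out after their values were seen.

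Alpha and PP genes moved the other way, in smaller numbers. Of 19 alpha-cell genes, 10 fell and 3 rose (median -0.31). In the groups fitted alone 1, 0, 4 and 6 fell in Ctr BSA, αGlu BSA, Ctr PA and αGlu PA, and 2, 3, 0 and 2 rose. Gcg, the glucagon gene, ranged from 13476 to 24791 CPM in batch 1 (median 17777) and from 9216 to 15692 CPM in batch 2 (median 12366), with overlap (log2 fold change -0.57, SE 0.105, adjusted p = 6.97e-05). It did not pass in Ctr BSA or αGlu BSA alone (adjusted p = 0.149 and 0.283). Its share of counts was 1.88% ± 0.356 in batch 1 and 1.22% ± 0.200 in batch 2 (SD, 12 libraries each, exact permutation, adjusted p = 1.69e-04). The alpha-cell transcription factors Irx1 and Irx2 had log2 fold changes of -0.62 and -0.59 (adjusted p = 5.63e-04 and 2.40e-05), while transthyretin (Ttr), also abundant in alpha cells, rose by 0.36 (adjusted p = 0.00165). Irx1 did not pass in Ctr BSA, αGlu BSA or Ctr PA alone, and Irx2 did not in Ctr BSA or αGlu BSA alone. Ttr did not pass in Ctr BSA, Ctr PA or αGlu PA alone. These 3 were singled out after their values were seen. Ppy, the gene of pancreatic polypeptide, ranged from 574 to 1224 CPM in batch 1 (median 740.4) and from 288 to 571 CPM in batch 2 (median 440.2), and no libraries overlapped (log2 fold change -0.79, SE 0.0891, adjusted p = 6.60e-08). Peptide YY (Pyy) had medians of 395 and 292 CPM (log2 fold change -0.53, SE 0.100, adjusted p = 8.76e-05). The somatostatin gene Sst of delta cells had nearly equal medians, 284 and 288 CPM (log2 fold change -0.015, SE 0.113, adjusted p = 0.923). Of 15 delta-cell genes 3 rose and 3 fell (3 and 1 without S4), beside 25.3% and 24.7% of all genes. Ghrl, the ghrelin gene, differed by -0.68 (adjusted p = 0.106).

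**Figure D3:**
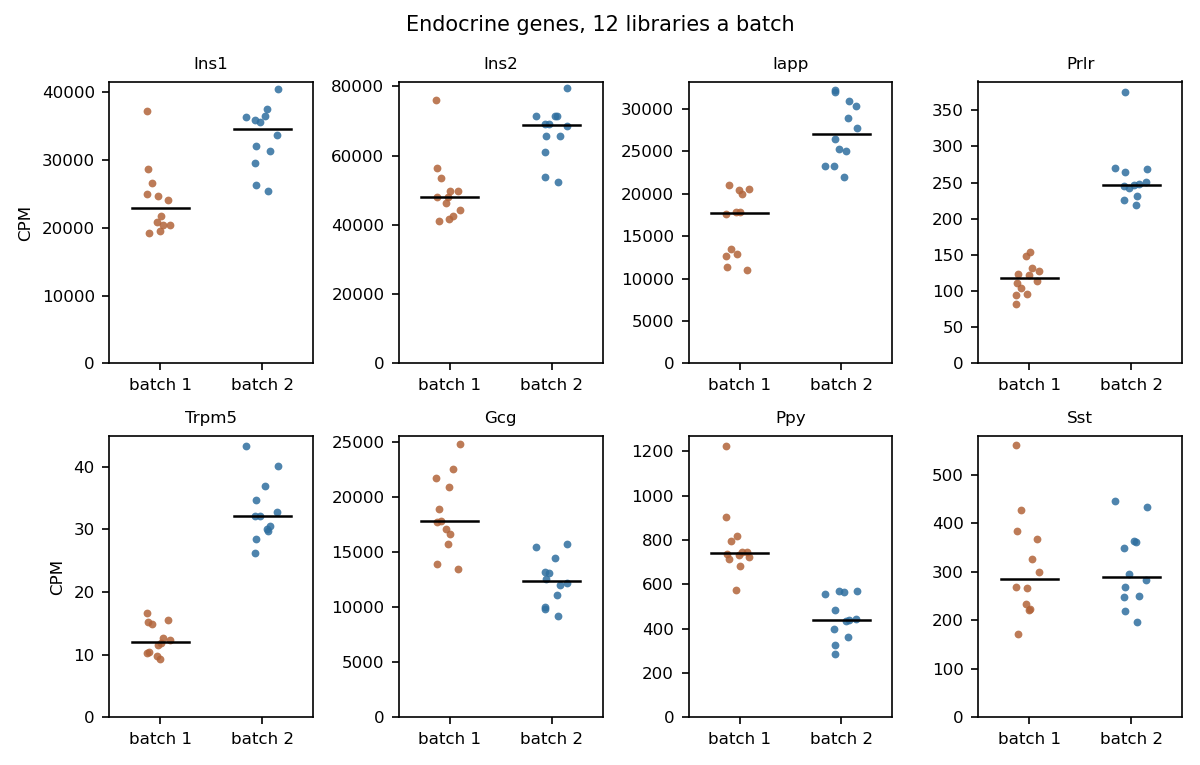
Level in CPM on a linear axis from 0 (y) of 5 beta-cell genes (Ins1, Ins2, Iapp, Prlr, Trpm5) and the hormone genes Gcg, Ppy and Sst in the 12 libraries of each batch (points), with the median as a line. Iapp, Prlr and Trpm5 lie higher in every library of batch 2, Ppy lies lower in every one, and Sst has nearly equal medians of 284 and 288 CPM.

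Genes of the early secretory pathway rose with few exceptions. Proteins bound for secretion enter the endoplasmic reticulum (ER) through the Sec61 channel, lose their signal peptide, receive sugars and are folded by chaperones. Of 30 genes for translocation, signal peptidase and the oligosaccharyltransferase, 29 rose and none fell, with a median of 0.53, and 19 did not overlap between batches. This list was drawn up after the data were seen. Rpn2, a subunit of the oligosaccharyltransferase, ranged from 391.68 to 565 CPM in batch 1 (median 482) and from 656 to 852 CPM in batch 2 (median 729) (log2 fold change 0.63, SE 0.0351, adjusted p = 9.03e-13). The signal recognition particle receptor Srpr ranged from 304 to 413 CPM in batch 1 (median 351) and from 471 to 599 CPM in batch 2 (median 532) (log2 fold change 0.59, SE 0.0314, adjusted p = 4.40e-13). Ddost, Dad1 and the signal peptidase subunits Spcs1 and Spcs3 rose by 0.57, 0.65, 0.72 and 0.66 (largest adjusted p of the 4 = 2.48e-10). For all 4 the batches lay apart, though no gene of the list differed more than 2-fold.

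Of 26 genes for ER chaperones and the unfolded protein response, 24 rose, 1 fell and 1 did not pass (median 0.38). The disulfide isomerase Pdia3 ranged from 876 to 1074 CPM in batch 1 (median 958) and from 1213 to 1416 CPM in batch 2 (median 1362), without overlap (log2 fold change 0.47, SE 0.0327, adjusted p = 2.40e-11). Hspa5, the central ER chaperone BiP, rose less and overlapped. It ranged from 1468 to 2488 CPM in batch 1 (median 1906) and from 1857 to 2891 CPM in batch 2 (median 2204) (log2 fold change 0.23, SE 0.0465, adjusted p = 1.70e-04). Hspa5 did not pass in Ctr BSA, Ctr PA or αGlu PA alone, nor without group covariates (adjusted p = 0.0515). Hsp90b1 rose by 0.33 (adjusted p = 3.49e-07). Sdf2l1, Dnajb9, Pdia6 and Hyou1 rose by 0.76, 0.75, 0.67 and 0.63 (largest adjusted p of the 4 = 3.71e-09). Derl3, which takes part in ER-associated degradation, fell by 0.61 (adjusted p = 1.12e-05), and Xbp1, the transcription factor of this response, differed by 0.08 (adjusted p = 0.0593), though it passed without S1, S7, S8, S15 or S19. Some of these genes carry the ER stress element (CCAAT, any 9 bases, CCACG), which ATF6 and NF-Y are known to read. On either strand of the 250 upstream bases it was found in 9 of 22 promoters of the list (40.9%) and in 0.122% of all promoters. The element nearest the start is shown for the 3 genes with most counts that carry one and rose, with its fixed letters in capitals (GRCm38.p6, 5' to 3' on the strand of the gene):
Hspa5, chr2:34771995-34772073, plus strand: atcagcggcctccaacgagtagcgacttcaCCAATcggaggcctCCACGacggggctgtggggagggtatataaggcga
Hsp90b1, chr10:86705503-86705581, minus strand: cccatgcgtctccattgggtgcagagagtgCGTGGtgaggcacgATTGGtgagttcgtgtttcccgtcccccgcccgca
Calr, chr8:84847045-84847123, minus strand: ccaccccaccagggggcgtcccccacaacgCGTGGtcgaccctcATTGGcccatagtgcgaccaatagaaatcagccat
In Hsp90b1 and Calr the element runs on the opposite strand. Of the promoters with the element 8 of 9 belonged to genes that rose, and of those without it 12 of 13.

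Stress and damage programmes were lower in batch 2. Of 21 p53 target genes, 19 fell and 1 rose (median -0.63). Cdkn1a, the p21 inhibitor of the cell cycle, ranged from 237 to 369 CPM in batch 1 (median 313) and from 153 to 227 CPM in batch 2 (median 192) (log2 fold change -0.72, SE 0.0502, adjusted p = 2.30e-11). The proapoptotic BH3-only gene Pmaip1, or Noxa, ranged from 31.1 to 105 CPM in batch 1 (median 62.4) and from 7.35 to 17.2 CPM in batch 2 (median 10.1) (log2 fold change -2.66, SE 0.190, adjusted p = 3.53e-11). Perp ranged from 32.7 to 77.8 CPM in batch 1 (median 55.7) and from 12.7 to 16.6 CPM in batch 2 (median 14.1) (log2 fold change -1.93, SE 0.137, adjusted p = 3.39e-11). For all of these the batches were apart. The gene that rose was Ckap2 (log2 fold change 0.86, adjusted p = 9.27e-05), which also encodes a mitotic spindle protein. Ckap2 passed in no group alone. Immediate early genes, which cells switch on within minutes of a stimulus, fell in 19 of 28 cases and rose in 4 (median -0.45). Myc ranged from 29.1 to 62.2 CPM in batch 1 (median 46.7) and from 9.19 to 21.5 CPM in batch 2 (median 12.1) (log2 fold change -1.70, SE 0.121, adjusted p = 3.44e-11). Klf4 ranged from 32.3 to 55.1 CPM in batch 1 (median 47) and from 11.8 to 18.4 CPM in batch 2 (median 15) (log2 fold change -1.56, SE 0.101, adjusted p = 6.94e-12), both without overlap. The phosphatase gene Dusp1 fell by 1.42 and Klf6 by 1.46 (adjusted p = 5.17e-11 and 5.23e-11). Fos differed by -0.26 (adjusted p = 0.0488), a call that was lost in each group alone, with upper-quartile scaling, without group covariates and with any of 17 of the 24 libraries left out (adjusted p up to 0.11 with one left out). Egr1 differed by -0.17 (adjusted p = 0.0786) and passed without S12 or S20. Of 26 Nrf2 antioxidant targets, 18 fell and 1, G6pdx, rose (log2 fold change 0.18, adjusted p = 1.70e-04). Catalase (Cat) ranged from 30.3 to 59.9 CPM in batch 1 (median 45.6) and from 14.6 to 22.7 CPM in batch 2 (median 17.3) (log2 fold change -1.31, SE 0.108, adjusted p = 3.48e-10). The glutathione transferase Gsta3 had medians of 8.59 and 2.34 CPM (log2 fold change -1.94, SE 0.179, adjusted p = 2.58e-09).

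Other stress genes were mixed. Among heat-shock chaperones 8 of 19 rose and 6 fell, and the fall was largest for the small heat-shock genes Cryab (log2 fold change -1.71, adjusted p = 2.29e-08) and Hspb1. Hspb1 ranged from 47.1 to 88.9 CPM in batch 1 (median 75.7) and from 2.11 to 17.8 CPM in batch 2 (median 9.17) (log2 fold change -2.90, SE 0.204, adjusted p = 2.67e-11). Of 28 targets of ATF4 and CHOP, 9 rose and 12 fell, with a median of -0.017. Nupr1, a stress gene that exocrine tissue also expresses strongly in pancreatitis, was the most different of them and ranged from 253 to 613 CPM in batch 1 (median 406) and from 33.8 to 103 CPM in batch 2 (median 53.6) (log2 fold change -2.69, SE 0.191, adjusted p = 3.44e-11), whereas Atf4 itself had medians of 370.4 and 379 CPM (adjusted p = 0.326). Inflammatory and NF-kB target genes fell in 12 of 26 cases and rose in 3. Cxcl2, a neutrophil chemokine, ranged from 0.538 to 2.76 CPM in batch 1 (median 1.10) and from 0 to 0.353 CPM in batch 2 (median 0.110) (log2 fold change -3.21, SE 0.384, adjusted p = 1.60e-07). The cytokine Lif ranged from 6.45 to 14.1 CPM in batch 1 (median 9.09) and from 2.75 to 5.52 CPM in batch 2 (median 4.60) (log2 fold change -1.15, SE 0.129, adjusted p = 6.44e-08), while the interleukin-1 receptor Il1r1 rose by 0.24 (adjusted p = 3.76e-06). Many genes of these lists are expressed in exocrine and ductal cells too, whose markers moved in the same direction (38 of 39 acinar and 18 of 26 ductal genes fell), and the part of those cells in the stress genes was not tested.

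Interferon-stimulated genes fell in 34 of 51 cases and rose in none (33 and 1 without S1, median -0.43), but the size varied widely. Isg15, a ubiquitin-like antiviral protein, fell by 1.84 (adjusted p = 7.58e-04), the GTPase Iigp1 by 2.00 (adjusted p = 0.0169, but 0.0602 without S6) and the transcription factor Irf7 by 0.99 (adjusted p = 1.03e-04). Xaf1 ranged from 2.51 to 16.1 CPM in batch 1 (median 4.58) and from 1.29 to 3.85 CPM in batch 2 (median 2.34) (log2 fold change -1.29, SE 0.196, adjusted p = 6.04e-06). Ifit2 ranged from 1.24 to 7.09 CPM in batch 1 (median 3.06) and from 0.525 to 4.10 CPM in batch 2 (median 1.63) (log2 fold change -1.09, SE 0.209, adjusted p = 1.14e-04), both with overlap. Mx1 differed by 0.43 (adjusted p = 0.159), and the class I genes H2-K1 and H2-D1 differed by 0.12 (adjusted p = 0.129) and -0.069 (adjusted p = 0.493). The summed level of the list ran from 1853 to 3595 CPM in batch 1 (median 2647) and from 2016 to 3159.8 CPM in batch 2 (median 2544), with broad overlap. In Ctr PA libraries alone none of the list passed, against 11, 17 and 16 lower genes in Ctr BSA, αGlu BSA and αGlu PA. Isg15, Iigp1, Irf7 and Mx1 were singled out after their values were seen. The interferon-stimulated response element, here GAAA, any 2 bases and GAAA on either strand, was in 18 of 40 promoters of the list (45%) and in 3.04% of all promoters. It is shown in capitals for the 2 genes with most counts that carry it and fell:
Stat2, chr10:128270248-128270315, plus strand: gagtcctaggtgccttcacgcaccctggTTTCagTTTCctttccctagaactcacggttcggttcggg
Irgm1, chr11:48871421-48871474, minus strand: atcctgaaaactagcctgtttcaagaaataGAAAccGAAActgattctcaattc
Genes that fell made up 13 of the 18 with the element and 13 of the 22 without it.

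Genes of the dividing cell were higher in batch 2. Of 38 cell cycle genes, 27 rose, 13 more than 2-fold, and 2 fell (median 0.73). Fitted alone, Ctr BSA, αGlu BSA, Ctr PA and αGlu PA gave 5, 9, 4 and 16 that rose. In that order 2, 2, 1 and 0 fell. Mki67, which encodes the proliferation marker Ki-67, ranged from 4.66 to 18.8 CPM in batch 1 (median 11.2) and from 18 to 38.9 CPM in batch 2 (median 29) (log2 fold change 1.39, SE 0.198, adjusted p = 2.22e-06). Top2a, the topoisomerase of mitotic cells, ranged from 1.43 to 11.4 CPM in batch 1 (median 4.81) and from 9.13 to 25.2 CPM in batch 2 (median 18.2) (log2 fold change 1.61, SE 0.232, adjusted p = 2.61e-06). For both, the 2 or 3 lowest libraries of batch 2 met the 2 highest of batch 1, and the other libraries lay apart. The mitotic kinase gene Cdk1 had medians of 1.24 and 3.70 CPM (log2 fold change 1.37, SE 0.225, adjusted p = 1.55e-05). Aurkb rose by 1.45, Cenpf by 1.46 and Ccnb1 by 1.04 (largest adjusted p of the 3 = 0.00477). Aurkb and Ccnb1 passed in no group alone, and Cenpf did not pass in Ctr BSA, Ctr PA or αGlu PA alone. The 6 listed Mcm genes, which encode the replication licensing helicase, were mixed. Mcm7 ranged from 19 to 25.5 CPM in batch 1 (median 22.3) and from 14.1 to 17.9 CPM in batch 2 (median 16.9) and fell without overlap (log2 fold change -0.43, SE 0.0527, adjusted p = 2.09e-07), Mcm6 fell by 0.49 (adjusted p = 8.47e-06), Mcm5 rose by 0.82 (adjusted p = 1.82e-04), and the other 3 did not pass. Pcna, the sliding clamp of DNA replication, rose by 0.21 (adjusted p = 7.09e-04). The summed level of the list ran from 172 to 265 CPM in batch 1 (median 216) and from 239 to 368 CPM in batch 2 (median 299). The cell cycle gene homology region TTTGAA, read on both strands, was in 8 of 31 promoters of the list (25.8%, against 16.3% of all) and the NF-Y box CCAAT in 26 (83.9%, against 34.5%). The region nearest the start is given in capitals for the 2 genes with most counts that carry it and rose:
Mki67, chr7:135716442-135716507, minus strand: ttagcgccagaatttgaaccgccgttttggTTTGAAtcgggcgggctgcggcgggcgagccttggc
Top2a, chr11:99024190-99024242, minus strand: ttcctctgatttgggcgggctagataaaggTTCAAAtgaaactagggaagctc
In Top2a the letters run on the opposite strand.

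Transcripts for protein synthesis and respiration differed by less than 2-fold with few exceptions. Of 76 cytosolic ribosomal protein genes, 68 fell and 1 rose, none by more than 2-fold (median -0.37). Their joint share of counts ranged from 1.81% to 2.58% in batch 1 (median 2.07%) and from 1.26% to 1.93% in batch 2 (median 1.51%) (exact permutation, adjusted p = 3.75e-05). Rpl4, a protein of the large ribosomal subunit, ranged from 780.2 to 1147 CPM in batch 1 (median 903) and from 637 to 978 CPM in batch 2 (median 747) (log2 fold change -0.22, SE 0.0515, adjusted p = 7.85e-04). The one that rose, Rpl7l1, encodes a nucleolar paralog and not a subunit of the mature ribosome (log2 fold change 0.099, adjusted p = 0.0214). Rpl7l1 passed in no group alone, nor without the filter on low counts (adjusted p = 0.0524). The count differed between groups fitted alone, with 71 genes lower in Ctr BSA, 52 in αGlu BSA, 5 in Ctr PA and 11 in αGlu PA. All 13 mRNAs encoded by the mitochondrial genome rose (median 0.46, from 0.38 for mt-Co3 to 0.71 for mt-Nd6), and their share of counts ranged from 3.04% to 4.73% in batch 1 (median 4.22%) and from 4.45% to 8.73% in batch 2 (median 5.02%) (exact permutation, adjusted p = 4.50e-05). In the groups fitted alone 0, 13, 0 and 13 passed in Ctr BSA, αGlu BSA, Ctr PA and αGlu PA. Without S1 and S23 all 13 still passed, with a median of 0.33. Of 82 nuclear-encoded subunits of the respiratory chain, 48 rose and 1 fell (38 and 3 without S15), with a median of 0.16, and in the groups fitted alone 4, 39, 1 and 43 rose in the same order. Cox6a2, the striated muscle isoform of a cytochrome c oxidase subunit, was the one called, and ranged from 3.76 to 8.06 CPM in batch 1 (median 6.57) and from 10.9 to 16.5 CPM in batch 2 (median 13.3) (log2 fold change 1.10, SE 0.0949, adjusted p = 7.84e-10). Mitochondrial ribosomal protein genes were balanced, with 16 of 78 higher and 12 lower. The ribosomal and respiratory lists were drawn up after the data were seen.

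Cells of the islet stroma showed no such clear-cut difference. Macrophage genes had a list median of 0.90, yet 10 of 33 rose, 4 fell and 19 did not pass, beside 25.3% of all genes that rose and 24.7% that fell. C1qa, a complement component of resident macrophages, ranged from 51.2 to 83.7 CPM in batch 1 (median 72.5) and from 78.1 to 127 CPM in batch 2 (median 107) (log2 fold change 0.58, SE 0.0831, adjusted p = 2.64e-06). Fcer1g, an Fc receptor subunit, ranged from 0.453 to 1.86 CPM in batch 1 (median 0.979) and from 1.39 to 7.10 CPM in batch 2 (median 2.18) (log2 fold change 1.31, SE 0.221, adjusted p = 2.27e-05). Cx3cr1, the fractalkine receptor, rose by 2.93 (adjusted p = 0.00223) and the integrin Itgax by 1.91 (adjusted p = 0.0116, but -0.47 in αGlu PA alone), while Csf1r, Adgre1 and Cd68 differed by 0.13 (adjusted p = 0.641), 1.10 (adjusted p = 0.0561) and -0.16 (adjusted p = 0.42), of which Adgre1 passed without S3, S8, S13, S15 or S16. Lgals3, which ductal cells make too, fell by 1.21 (adjusted p = 1.33e-05). The summed macrophage level ranged from 158 to 288 CPM in batch 1 (median 189.6) and from 139 to 664 CPM in batch 2 (median 222), and the highest value of batch 2 belonged to S21, a Ctr BSA library. The number of genes that rose was 7 without S21 and 23 without S8, of batch 1, and list medians in the groups fitted alone were 1.41 in Ctr BSA, 1.76 in αGlu BSA, 0.33 in Ctr PA and -0.49 in αGlu PA. Cx3cr1, Itgax, Csf1r, Adgre1 and Cd68 were singled out after their values were seen.

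Fibroblast and stellate cell genes did not separate the batches. Of 36, only Loxl2 passed (log2 fold change 0.30, adjusted p = 3.73e-05), with a list median of -0.089. Fibronectin (Fn1) ranged from 24.9 to 711 CPM in batch 1 (median 225) and from 31.9 to 713 CPM in batch 2 (median 196) (log2 fold change -0.047, SE 0.249, adjusted p = 0.893). The collagen genes Col1a1 and Col3a1 differed by -0.56 (adjusted p = 0.433) and 0.44 (adjusted p = 0.682). The summed level of the list ran from 156 to 2733 CPM in batch 1 (median 985) and from 278 to 3795 CPM in batch 2 (median 847), and within both batches BSA libraries (1329 to 2733 CPM in batch 1, 925 to 3795 CPM in batch 2) were above PA libraries (156 to 642 and 278 to 769 CPM). Without S18, of batch 2, 6 of these genes fell, and 1 fell without S1, S11, S12, S17 or S20, while 2 rose without S5, S6, S14 or S22 and 3 without S8. Such a spread leaves room for sizeable batch differences that could not be detected here. Endothelial genes fell in 10 of 28 cases and rose in none (median -0.53). Podxl ranged from 4.62 to 20.3 CPM in batch 1 (median 11.8) and from 1.75 to 8.60 CPM in batch 2 (median 5.44) (log2 fold change -1.32, SE 0.174, adjusted p = 7.43e-07), Kdr, the main VEGF receptor, fell by 1.16 (adjusted p = 0.00959), and the junction genes Pecam1 and Cdh5 differed by -0.29 (adjusted p = 0.406) and -0.45 (adjusted p = 0.268). In αGlu PA alone 13 endothelial genes fell, with none or 1 in each of the other groups. Without S24, a library of that group, 6 fell in the fit of all groups.

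Of 28 Schwann cell and glial genes, 7 rose, a share near the 25.3% of all genes that rose, and 2 fell, against 24.7% of all genes. Sox10, the transcription factor that defines these cells, differed by 1.39 (adjusted p = 0.0525), and passed without any one of 6 libraries (S4, S9, S13, S17, S18 and S20). The count that rose was 3 without S21, 4 without S6, S7, S14 or S22, 11 without S13, 13 without S4 or S17 and 14 without S9. The summed level of the list ranged from 959 to 1119 CPM in batch 1 (median 1009) and from 1096 to 1328 CPM in batch 2 (median 1176). Erbb3, the neuregulin receptor of Schwann cells and of epithelia, fell instead and ranged from 29.8 to 68.3 CPM in batch 1 (median 44.5) and from 8.72 to 22.8 CPM in batch 2 (median 12.9) (log2 fold change -1.66, SE 0.151, adjusted p = 1.78e-09). Neuronal genes rose in 5 of 13 cases and fell in 2 (none without S9, 1 without S1, S2, S3, S4, S13, S22 or S23). Th, tyrosine hydroxylase, which beta cells can express as well as sympathetic nerves, ranged from 3.59 to 10.6 CPM in batch 1 (median 6.99) and from 9.24 to 20.8 CPM in batch 2 (median 13.4) (log2 fold change 1.04, SE 0.0817, adjusted p = 1.65e-10). Lymphocytes and granulocytes were scarcely present in either batch. Igkc, Ighm and Mcpt4 had no count in any library, and Cd3e had 6 counts over all 24.

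**Figure D4:**
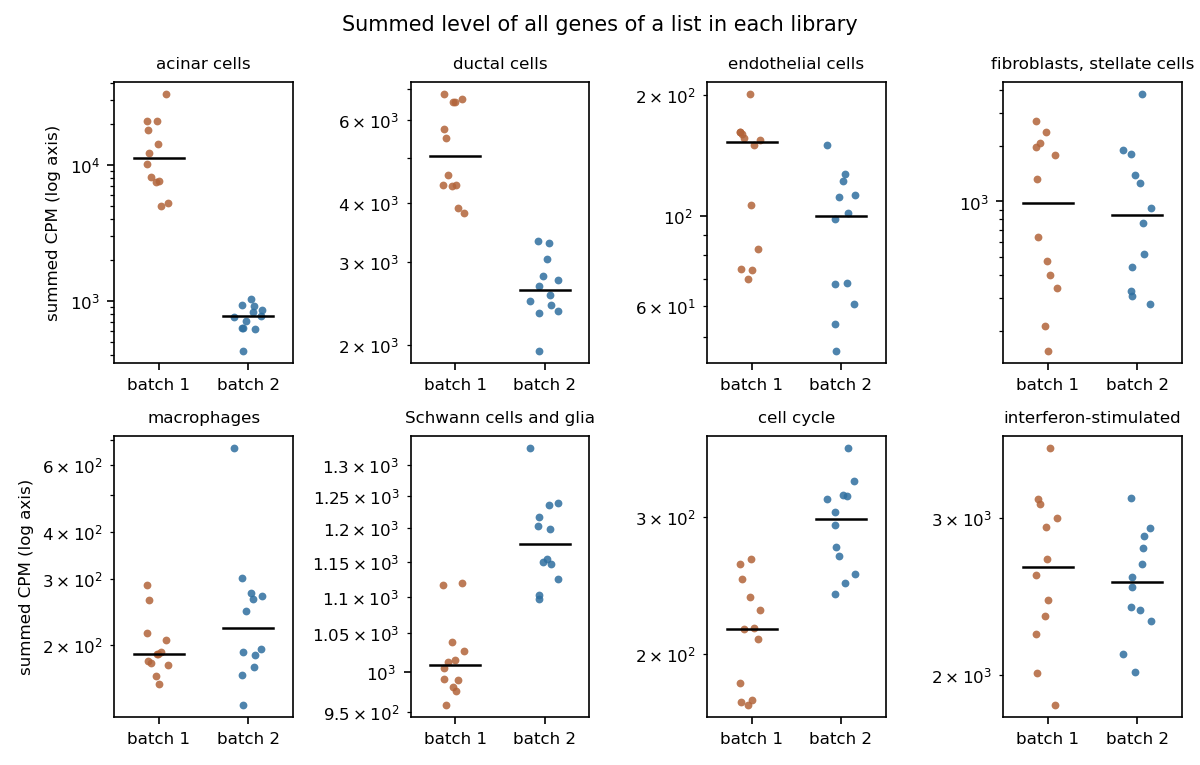
Summed CPM on a log axis (y) of all genes of 8 lists in the 12 libraries of each batch (points), with the median as a line. The acinar and ductal sums separate the batches without overlap, the cell cycle sum shifts up with little overlap, and the ranges of the fibroblast sum overlap broadly.

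The single genes of smallest p included small and large folds. Txnip, the thioredoxin inhibitor whose transcription follows glucose (chr3:96557957-96561883 in GRCm38), ranged from 259.5 to 524 CPM in batch 1 (median 392.10) and from 133 to 200.1 CPM in batch 2 (median 159) (log2 fold change -1.25, SE 0.0582, adjusted p = 9.28e-14). Atg9b, a membrane protein of autophagy (chr5:24384181-24392143), ranged from 9.58 to 21.1 CPM in batch 1 (median 17.7) and from 0.501 to 2.26 CPM in batch 2 (median 1.30) (log2 fold change -3.64, SE 0.173, adjusted p = 1.29e-13). Both were apart in all libraries. Cyp3a13, a cytochrome P450, ranged from 15.7 to 46.8 CPM in batch 1 (median 38.2) and from 1.03 to 2.94 CPM in batch 2 (median 2.03) (log2 fold change -4.11, SE 0.214, adjusted p = 4.23e-13). Myo5c, a myosin of exocrine secretory granules, ranged from 39.4 to 105 CPM in batch 1 (median 76.4) and from 4.04 to 10.3 CPM in batch 2 (median 6.98) (log2 fold change -3.45, SE 0.179, adjusted p = 4.23e-13). The netrin gene Ntn4 ranged from 15.2 to 41.3 CPM in batch 1 (median 27.1) and from 3.43 to 6.27 CPM in batch 2 (median 4.75) (log2 fold change -2.54, SE 0.142, adjusted p = 8.83e-13). On the other side, Hapln4, which encodes a link protein of hyaluronan matrix (chr8:70083457-70090862), ranged from 51 to 76.8 CPM in batch 1 (median 68.6) and from 118 to 143 CPM in batch 2 (median 128) (log2 fold change 1.00, SE 0.0429, adjusted p = 2.76e-14). Tacr3, the receptor for neurokinin B, ranged from 0.836 to 4.67 CPM in batch 1 (median 2.11) and from 5.48 to 15.4 CPM in batch 2 (median 9.08) (log2 fold change 2.03, SE 0.130, adjusted p = 6.05e-12). Lgals12, Tmem267, Brinp2, Eef1akmt3 and Tmigd3 (a row that may share reads with an overlapping gene) rose by 1.02, 1.18, 1.13, 1.01 and 1.12, each with all libraries of batch 2 above those of batch 1. Genes of the X-linked Xlr family, which encode nuclear proteins related to the synaptonemal complex, rose in 6 of 6 cases, all more than 2-fold. Xlr3a ranged from 8.02 to 17.9 CPM in batch 1 (median 12.3) and from 23.2 to 34 CPM in batch 2 (median 26.9) (log2 fold change 1.10, SE 0.0955, adjusted p = 9.15e-10). Xlr5b rose by 2.50 (adjusted p = 0.00458). Copies of this family are nearly identical, so that their separate values are uncertain, and the family was singled out after the values were seen.

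For few genes did the batch difference vary between the 4 groups. A test of whether it varied between them (3 degrees of freedom, edgeR quasi-likelihood test) passed for 5 of 16580 genes (0.0302%), with 540 genes (3.26%) at an unadjusted p below 0.05. This test, too, took libraries of one preparation as independent, and a p that misses the threshold does not show that the batches differed alike. The strongest were genes of fatty acid desaturation and sterol synthesis. For Scd2, a stearoyl-CoA desaturase (chr19:44293674-44306864), Ctr PA libraries had 343, 356 and 374 CPM in batch 1 and 553, 657 and 761 CPM in batch 2, and αGlu PA libraries 341, 352 and 377 and 606, 649 and 656 CPM. Without palmitate the values were 323, 449 and 463 against 351, 369 and 424 CPM in Ctr BSA and 388, 401 and 422 against 354, 361 and 379 CPM in αGlu BSA. The batches were thus apart with palmitate in the one direction and, in αGlu BSA, in the other (adjusted p of the difference = 0.00174). The batch difference itself did not pass in αGlu BSA alone (log2 fold change -0.15, adjusted p = 0.0834). In Ctr BSA alone it did not pass either (log2 fold change -0.13, adjusted p = 0.616). Fads2, the delta-6 desaturase, had log2 fold changes of 0.77 in Ctr PA and 0.69 in αGlu PA but -0.33 and -0.44 in Ctr BSA and αGlu BSA (adjusted p of the difference = 0.00174). Fdps, which makes farnesyl diphosphate, followed with 0.35, 0.58, -0.24 and -0.19 in the same order, and Acat2, an acetyl-CoA acetyltransferase, with 0.32, 0.51, -0.24 and -0.29. Pappa2, a protease that cleaves IGF-binding proteins, did the opposite, with 0.60 and 0.58 in Ctr BSA and αGlu BSA and -0.0095 and 0.041 in Ctr PA and αGlu PA. Of 25 cholesterol synthesis genes, 12 rose and 3 fell in all groups together. In αGlu PA alone 19 rose and 1 fell, and in αGlu BSA alone 3 rose and 5 fell, a contrast that was not tested for the list.

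**Figure D5:**
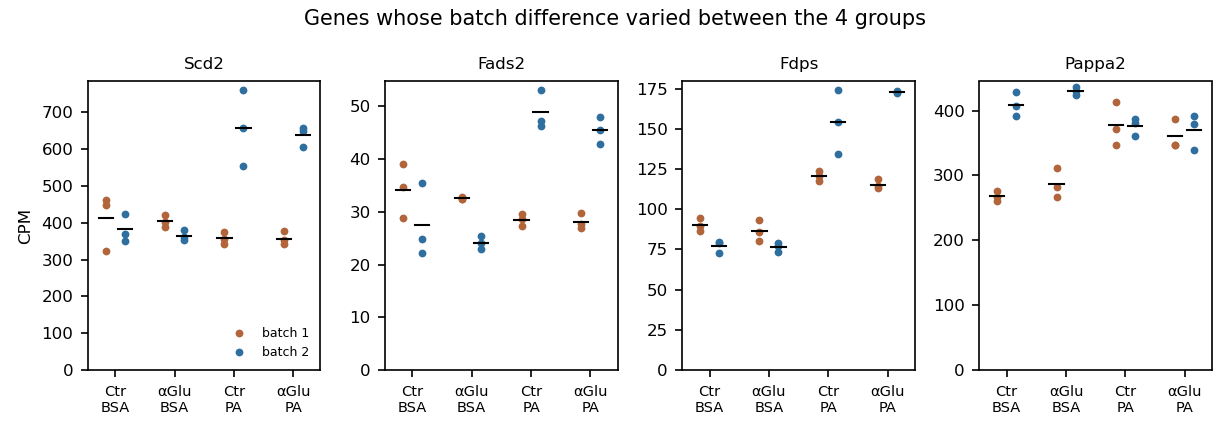
Level in CPM on a linear axis from 0 (y) of Scd2, Fads2, Fdps and Pappa2 in the 4 groups (x axis), with batch 1 and batch 2 side by side, 3 libraries each (points) and their mean as a line. For Scd2, Fads2 and Fdps batch 2 is higher in the PA groups and not in the BSA groups, and for Pappa2 it is higher in the BSA groups, with 425, 431 and 436 against 266, 282 and 312 CPM in αGlu BSA.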

How the data were processed

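Stranded mRNA libraries of dispersed mouse islet cells were compared by the batch given in the sample records. For annotation and normalization of the reads the authors used the RNA-seq Analysis Portal of QIAGEN, per the methods. The deposited table holds, for 41549 genes, the count of reads on exons in each library. The submitters' processing notes name GRCm38 and no other build. The aligner is not given in the sources used here. All 24 columns of raw counts were used, with empty cells read as 0, and 72 per-sample columns of RPKM, TPM and CPM values were not used. A line without a gene held 0 counts, and 16206 genes had no count. Depth was 18214719 to 35001979 counts. Reads carried no molecular identifiers, so counting error alone understates the spread, which was estimated between libraries.

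All models come from edgeR 4.0.16 under R 4.3.3. Genes were kept by filterByExpr (minimum count 10, on the cells of batch and group), which left 16580. After TMM scaling, all libraries entered one quasi-likelihood fit with terms for the 4 groups and for batch, with a second model for the difference of batch between groups. CPM values are TMM-scaled, and standard errors come from the F statistic. Principal components used log2 CPM with a prior count of 2. Single values were permuted exactly within groups, two-sided. Alternatives were DESeq2 1.42.0, upper-quartile scaling, no filter, a stricter filter (10 counts in 12 libraries), the study's threshold, no group covariates, each group alone and each library left out. A further pair was chosen after seeing the data, namely acinar and ductal genes left out before scaling, and S1 and S23 left out. The model was tested on simulated data, where 75% of 2-fold and 90% of 4-fold changes were recovered and 13 unchanged genes passed. The simulated libraries were independent, so the dependence within preparations was not tested. Their spread was estimated with the 4 groups and without batch, so it took in the batch differences. The shares recovered therefore do not carry over to the fit with batch. Gene lists of cell types and programmes were written by hand from general knowledge. The comparison, lists and naming rule were chosen with earlier results of these data known. The rule named the 12 genes of smallest p called in each direction with a mean of at least 10 counts, no clone name and the same direction in all 4 groups, from each list the 3 members of highest CPM and up to 3 called ones, all hormone, sex-linked and substrain genes and the 5 genes of smallest p for the difference between groups. Not every gene it took is printed. Outside the rule, and chosen after their values were seen, are the genes said to be so in the text, those whose promoters are shown, and Aurkb, Bhlha15, Ccnb1, Cdh5, Cenpf, Ckap2, Col1a1, Col3a1, Dad1, Derl3, Dnajb9, Egr1, Fos, G6pdx, Hyou1, Kdr, Loxl2, Mcm5, Mcm6, Pdia6, Pecam1, Rpl7l1, Sdf2l1, Sox10, Spcs1, Spcs3, Xbp1, Xlr5b, mt-Co3 and mt-Nd6. Gene positions are from GENCODE M21 and promoter sequences from RefSeq (GRCm38.p6), matched by symbol.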

Additional observations from a re-analysis of the deposited data

Results flagged for a closer look

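For 5 genes the difference between batches itself differed between the 4 groups, by the test of that difference. Their adjusted p-values were 0.00174 for Fdps, 0.00174 for Fads2, 0.00174 for Scd2, 0.00918 for Pappa2 and 0.0461 for Acat2. For Fdps, the 3 αGlu PA libraries of batch 2 were at 172, 173 and 174 CPM and those of batch 1 at 113, 114 and 119 CPM, whereas the αGlu BSA libraries were at 73.5, 77.3 and 78.8 and 80.3, 86.2 and 93.3 CPM. For Acat2 the corresponding values were 18, 19.2 and 19.6 against 11.5, 13.9 and 14.4 CPM with palmitate and 12.5, 13 and 14.9 against 15.6, 16.3 and 17.2 CPM without. In the reverse pattern, Pappa2 was at 391.98, 408 and 428 against 261, 267 and 275 CPM in Ctr BSA and at 361, 381 and 387 against 348, 372 and 414 CPM in Ctr PA.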

How the results depend on the processing

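The count of changed genes stayed within 1.5 times of 8278 under DESeq2, upper-quartile scaling, no filter, the stricter filter, no group covariates and both settings chosen after seeing the data, and so did the counts of called genes under these settings and the study's threshold. With a single group, and thus 3 libraries a batch, fewer genes passed, namely 2620 (1155 higher, 1465 lower) for Ctr BSA alone, 4086 (2028 and 2058) in αGlu BSA, 1322 (516 and 806) in Ctr PA and 3589 (1814 and 1775) in αGlu PA. Called genes numbered 717 in Ctr BSA and 583 in Ctr PA, of which 503 were lower, and called higher genes 86 in Ctr BSA, 80 in Ctr PA and 62 in αGlu PA. The difference between groups passed for 15 genes in DESeq2 and for 540 at an unadjusted p. With each library left out in turn, changed genes ran from 7926 to 8478, called genes from 1071 to 1167, and genes with a difference between groups from 4 to 5. Genes called lower ran from 895 to 997. Genes called higher varied more, from 133 (without S21) to 232 (without S8), against 164 with all libraries. The mean difference between batches within groups then ran from 1.18 to 3.01 percentage points for counts of protein-coding genes, lowest without S1, from 0.583 to 2.73 for the 10 leading genes and from -1311420.0 to 786991 counts for the library total. Refits were made for 159 of the genes named in the text, and H2-K1, H2-D1, Th and Tmigd3 were not among them. Of 5526 refits, 5300 kept direction and side of the threshold, 146 lost the call and 35 gained it. A further 45 turned in direction (30 in a single group, 14 with one library left out and 1 without S1 and S23). The values that turned put Acat2 at -0.24 (Ctr BSA), -0.29 (αGlu BSA), Adgre1 at -0.26 (αGlu PA), Atf4 at -0.081 (Ctr BSA), Cd68 at 0.27 (Ctr BSA), 0.038 (αGlu BSA), Cdh5 at 0.24 (Ctr BSA). Others put Col1a1 at 0.30 (αGlu BSA), 0.20 (Ctr PA), Col3a1 at -3.70 (αGlu PA), -0.68 (without S18), Col4a1 at 0.33 (Ctr PA), Csf1r at -0.28 (Ctr PA), -0.31 (αGlu PA), -0.0053 (without S21), Fads2 at -0.33 (Ctr BSA), -0.44 (αGlu BSA). Others put Fdps at -0.24 (Ctr BSA), -0.19 (αGlu BSA), Fn1 at 0.83 (Ctr PA), 0.0049 (without S5), 0.052 (without S8), 0.0015 (without S9), 0.0062 (without S14), 0.024 (without S16), 0.043 (without S22), Ghrl at 0.32 (αGlu PA), Itgax at -0.47 (αGlu PA), Krt7 at -0.035 (Ctr BSA). Others put Pappa2 at -0.0095 (Ctr PA), Pecam1 at 0.36 (Ctr BSA), Scd2 at -0.13 (Ctr BSA), -0.15 (αGlu BSA), Sox10 at -0.32 (Ctr BSA), Spp1 at -0.0068 (Ctr BSA). Others put Sst at 0.071 (without S1 and S23), 0.096 (αGlu BSA), 0.15 (αGlu PA), 0.060 (without S1), 0.0086 (without S2), 0.024 (without S3), 0.034 (without S4), 0.019 (without S13), 0.010 (without S19), Ttr at -0.0016 (Ctr PA). Across single libraries left out, log2 fold changes of those that turned in this way ran from -0.68 to 0.76 for Col3a1, from -0.0053 to 0.23 for Csf1r, from -0.18 to 0.052 for Fn1 and from -0.064 to 0.060 for Sst. The cause of these changes was not tested, other than the smaller number of libraries in single groups. No paired analysis was possible because the labels neither give replicate numbers shared between batches nor tie libraries to preparations, and a preparation belongs to a single batch.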

Other observations

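Genes listed as low in mature beta cells or as marks of immature ones differed in part. Of 23 such genes, 11 fell, 8 more than 2-fold, and 3 rose (median -0.52). Yap1, a coactivator absent from mature beta cells, ranged from 10.8 to 29.2 CPM in batch 1 (median 17.1) and from 3.44 to 10.1 CPM in batch 2 (median 6.24) (log2 fold change -1.58, SE 0.146, adjusted p = 2.38e-09), the repressor gene Rest fell by 1.92 (adjusted p = 6.03e-09), and lactate dehydrogenase Ldha ranged from 18.7 to 79 CPM in batch 1 (median 48.2) and from 7.87 to 40.3 CPM in batch 2 (median 20.7) (log2 fold change -1.16, SE 0.142, adjusted p = 2.47e-07). These genes are expressed in exocrine, ductal and stromal cells as well, and the part of acinar and ductal RNA, which moved with them, was not tested. Aldh1a3, a marker of dedifferentiated beta cells, moved the other way with 1.04 (adjusted p = 2.24e-06). Igf1r, also on the list, rose too but was not low in any of these libraries. It ranged from 483 to 566 CPM in batch 1 (median 519.9) and from 611 to 825 CPM in batch 2 (median 708) (log2 fold change 0.44, SE 0.0435, adjusted p = 8.34e-09). Rest and Aldh1a3 were singled out after their values were seen.

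Clock and metabolic genes differed in smaller steps. Of 19 circadian genes, 11 fell and 1, Clock, rose and ranged from 127 to 181 CPM in batch 1 (median 167) and from 184 to 269.8 CPM in batch 2 (median 197) (log2 fold change 0.31, SE 0.0569, adjusted p = 7.82e-05), whereas Per1 fell by 0.28 (adjusted p = 4.24e-05) and the clock repressor Bhlhe40 by 1.08 (adjusted p = 1.43e-09). Of 27 genes of glycolysis and hypoxia, 13 fell and 6 rose. The hexokinase Hk2 ranged from 3.12 to 9.91 CPM in batch 1 (median 6.44) and from 1.05 to 4.80 CPM in batch 2 (median 2.06) (log2 fold change -1.50, SE 0.184, adjusted p = 2.48e-07). Pkm, a pyruvate kinase, ranged from 609 to 808 CPM in batch 1 (median 738) and from 633 to 911 CPM in batch 2 (median 807) (log2 fold change 0.16, SE 0.0507, adjusted p = 0.0109). Lipogenic genes rose in 7 of 20 cases and fell in 3 (5 without S3 or S23), and genes of the response of islets to prolactin rose in 3 of 13 cases, Prlr among them, and fell in 6. Of 35 genes of fatty-acid oxidation 10 rose and 14 fell, and 5 were called lower and 0 called higher. Among all genes, 5.51% were called lower and 0.989% called higher. Of 37 proteasome subunits 8 rose and 5 fell. Of 8 mesothelial genes 3 fell and 1 rose, and of 11 replication-dependent histone genes 4 rose (2 without S14, S16, S17 or S19) and 1 fell. Of 29 genes of matrix remodelling 11 fell and 2 rose. The urokinase receptor Plaur, the one that fell most, ranged from 17.7 to 46 CPM in batch 1 (median 31.3) and from 4.01 to 16.5 CPM in batch 2 (median 10.6) (log2 fold change -1.81, SE 0.161, adjusted p = 1.32e-09).

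Genes on the X chromosome were called higher in 17 of 539 cases (3.15%), 6 of them Xlr genes, against 0.989% of all genes. After group and batch were taken out, each of the 12 libraries of batch 1 correlated best with a library of its own run of 4 consecutive numbers, each run holding 1 library of every group, and 11 of 12 did so in batch 2. The mean correlation within a run was 0.154 in batch 1 and 0.0191 in batch 2, against -0.178 and -0.127 with other libraries of the batch. This is a hint in the data and no record ties these libraries together.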
